A study of Mus musculus with 28 samples.

Results

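Copy number of 6 genes of the Notch pathway, Notch1, Notch3, Fbxw7, Dtx1, Hes1 and Ptcra, was examined in 24 mouse tumours profiled by exome sequencing. The genes were chosen by name as Notch pathway genes of T-cell development, and all 6 were found by symbol among the 20665 autosomal protein-coding genes of the RefSeq annotation of GRCm38.p6. The set held 7 AD and 7 RP thymic lymphomas (tumours of thymic T cells), and 5 AD and 5 RP sarcomas (connective-tissue tumours). AD mice (p53 AD/-) carried a germline allele for a dimeric form of the tumour suppressor p53, and RP mice (p53 RP/-) one for a monomeric form. In both genotypes the second p53 allele is written as a minus, and both were on a mixed BALB/C and C57BL6 background. Tumours were taken at the animals' end point, and neither an age nor the site of a sarcoma is given in the labels used here. The series sets the altered genomes of the dimeric genotype against those of the monomeric one.

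Notch receptors are cut after they bind a ligand on a neighbouring cell, and the freed intracellular part enters the nucleus, where it joins the DNA-binding protein RBPJ and switches on target genes. In the thymus, Notch1 signalling commits progenitors to the T-cell lineage, and its unscheduled activity is a common cause of T-cell leukaemia and lymphoma. In mouse thymic lymphoma, deletions at the 5′ end of Notch1 have been described that remove the normal promoter and leave a shortened receptor made from inside the gene, active without ligand.

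Values are log2 copy ratios of tumour against a comparison DNA, with 0 for an equal ratio. Each gene was given its segment value, or the overlap-weighted average where several segments met it, and was called gained at 0.3 or above and lost at -0.3 or below. Each tumour had 211948 to 212450 markers (capture targets or windows) in 59 to 517 segments; their read depth is unknown. AD thymic lymphomas 6 and 7 stood apart, with 124 and 217 autosomal segments of at most 200 kb at -0.3 or below, against 19 to 48 in the other AD thymic lymphomas and 19 to 28 in the RP ones. A window on chromosome 6 over Trb, the T-cell receptor beta locus that T cells rearrange and partly delete, was at -0.3 or below in 13 of 14 thymic lymphomas and in 0 of 10 sarcomas. The exception was AD thymic lymphoma 3, at -0.079. The number of autosomal markers was 204845 to 204849 in AD and 204917 to 204922 in RP thymic lymphomas. In sarcomas it was 205075 to 205076 in AD tumours, against 205073 to 205074 in RP tumours. No 2 of the 4 groups overlapped, so a difference in processing cannot be told apart from tumour type, or from genotype within either tumour type.

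Notch1, the receptor that sets T-cell fate, lies on the minus strand of chromosome 2 at 26457902 to 26503822, so its 5′ end is at the high coordinate. A short segment of lower copy ratio covered that 5′ end in AD thymic lymphoma 2 and in RP thymic lymphoma 2, and no segment ended inside the gene in the other 22 tumours. At least 1 segment end in at least 1 tumour was found inside 7.1% of all genes in thymic lymphomas and 2.25% in sarcomas. The 300 bases around the annotated start, from 250 before it to 50 after it, are shown because both short segments held all of them. They are chr2:26503773-26504072 of GRCm38.p6, minus strand, from RefSeq, written 5′ to 3′ with the bases from the start site onward in capitals.
Notch1 promoter: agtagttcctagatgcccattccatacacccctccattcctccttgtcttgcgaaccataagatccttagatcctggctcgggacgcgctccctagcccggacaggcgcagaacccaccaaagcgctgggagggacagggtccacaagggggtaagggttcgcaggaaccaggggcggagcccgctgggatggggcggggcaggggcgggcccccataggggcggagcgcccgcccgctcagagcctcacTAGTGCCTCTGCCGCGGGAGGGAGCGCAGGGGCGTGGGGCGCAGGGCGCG
This stretch was GC-rich, at 68.3%, with 23 CG pairs. The core of the RBPJ site, TGGGAA, was searched for on both strands and had 0 matches, while 25.6% of the 32851 promoters in the table hold it. The heptamer of the recombination signal cut by the RAG enzymes, CACAGTG, which does not overlap that motif, also had 0 matches on either strand and is held by 6.81% of promoters. The stretch lies inside both short segments, and the sequence at their ends was not searched. Whether the heptamer occurs at those ends was not tested.

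In AD thymic lymphoma 2 the short segment ran from 26484267 to 26509611, over 25.3 kb and 5 markers, at a log2 copy ratio of -0.9986. Its flanks, of 2216 and 6588 markers, stood at -0.10 and -0.11, so it lay 0.539 times as high as its surroundings on the linear scale. The segment covered the first 19.6 kb of the gene, 42.6% of its span. The last marker outside it on the gene's side ended at 26481570, so the inner end lay within 2.7 kb.

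In RP thymic lymphoma 2 the short segment ran from 26501880 to 26509611, over 7.73 kb and 3 markers, at -0.46. Its flanks, of 2218 and 6589 markers, stood at 0.20 and 0.18, and the segment was 0.64 times as high as they were on the linear scale. It covered 1.94 kb of the gene, 4.23% of its span. The nearest marker further into the gene ended at 26485186, so the inner end could lie anywhere in a stretch of 16.7 kb without markers.

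Both segments ended at 26509611, 5.79 kb upstream of the gene, and the next marker began 79.5 kb further on, at 26589077. The shared end is therefore the last marker before a gap and does not place the outer breakpoint. The AD segment held 2 more markers than the RP one, between 26484267 and 26485186, and the AD segment on the gene's side had 2 fewer. Besides Notch1, the only RefSeq gene that either short segment touched was Gm35978, a long noncoding RNA gene at 26503927 to 26505347.

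**Figure D1:**
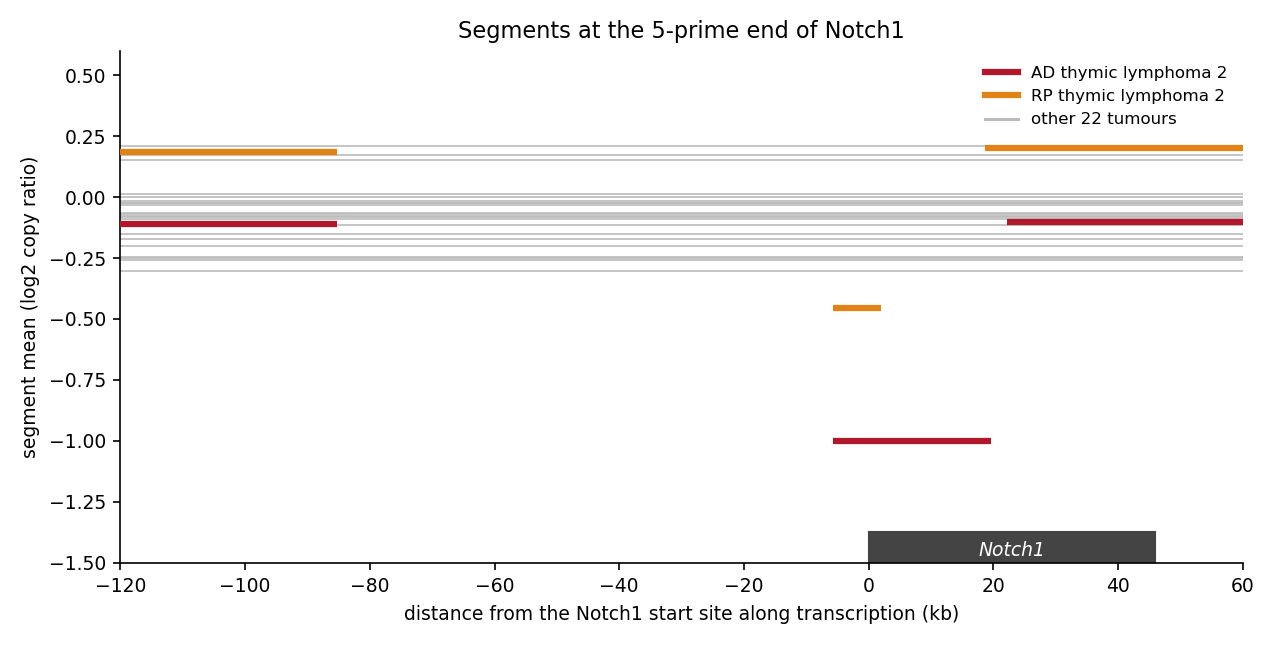
Segment means (log2 copy ratio) against the distance from the Notch1 start site along the direction of transcription, in kb, with the gene drawn as a bar. AD thymic lymphoma 2 drops to -0.9986 and RP thymic lymphoma 2 to -0.46 across the start site, while the other 22 tumours, in grey, have 1 unbroken segment each across the gene.

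Such short losses were uncommon but not peculiar to Notch1. An end of a lost segment of at most 200 kb lay inside 3.01% of all genes in at least 1 thymic lymphoma, and inside 0.527% in at least 2. In sarcomas such an end lay inside 0.329% of genes in at least 1 tumour, and inside 0 of the 6. Without AD thymic lymphomas 6 and 7 the second share was 0.189%, and Notch1 was still among these genes. The Notch1 segment was the tenth deepest of 20 short autosomal losses in AD thymic lymphoma 2 and ranked 19 of 25 in RP thymic lymphoma 2. The other 5 genes held no end of a short lost segment in any tumour. With segments of under 5 markers left out, an alternative chosen after seeing the data, Notch1 kept its short loss in 1 tumour, AD thymic lymphoma 2. A loss shared with the comparison DNA, or one too small to reach a marker, would not be seen.

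Over its whole length, Notch1 had a lowest, median and highest log2 copy ratio of -0.51, -0.25 and 0.17 in AD thymic lymphomas, against -0.30, -0.025 and 0.21 in RP thymic lymphomas. The groups overlapped. The lowest AD value is AD thymic lymphoma 2 and comes from the short segment, while the lowest RP value is RP thymic lymphoma 4, where a segment of 72.7 Mb stood at -0.30. In RP thymic lymphoma 2 the short segment barely moved the whole-gene value, which stayed at 0.16. In sarcomas the level was flat, at -0.065, -0.023, -0.15, 0.01 and 0.00 in AD and -0.016, -0.069, -0.089, -0.11 and -0.031 in RP tumours.

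Across the 6 genes, 7 of 84 values in thymic lymphomas were gained and 12 lost, which is 8.33% and 14.3%. Over all genes, 10.4% of values in thymic lymphomas were gained and 18% lost. All 7 gains were in AD thymic lymphomas (7 of 42 values, against 10.3% over all genes) and none in RP ones (0 of 42, against 10.5%). Losses numbered 6 in AD and 6 in RP thymic lymphomas, against 13.2% and 22.9% over all genes. In sarcomas no value was called in AD tumours, where 2.99% of all values were gained and 0.853% lost. In RP sarcomas 2 of 30 values were gained and 0 lost, against 0.661% and 0.575% over all genes. The median value of the 6 genes was -0.072 in thymic lymphomas and 0.034 in sarcomas, and that of all genes -0.09 and -0.0047.

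Most called values came from long segments. Of the 21, 9 lay in segments spanning at least 50% of the chromosome, and the median length was 72.7 Mb. No whole-gene value reached 1 or -1, and 7 of 144 passed 0.5 or -0.5.

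**Figure D2:**
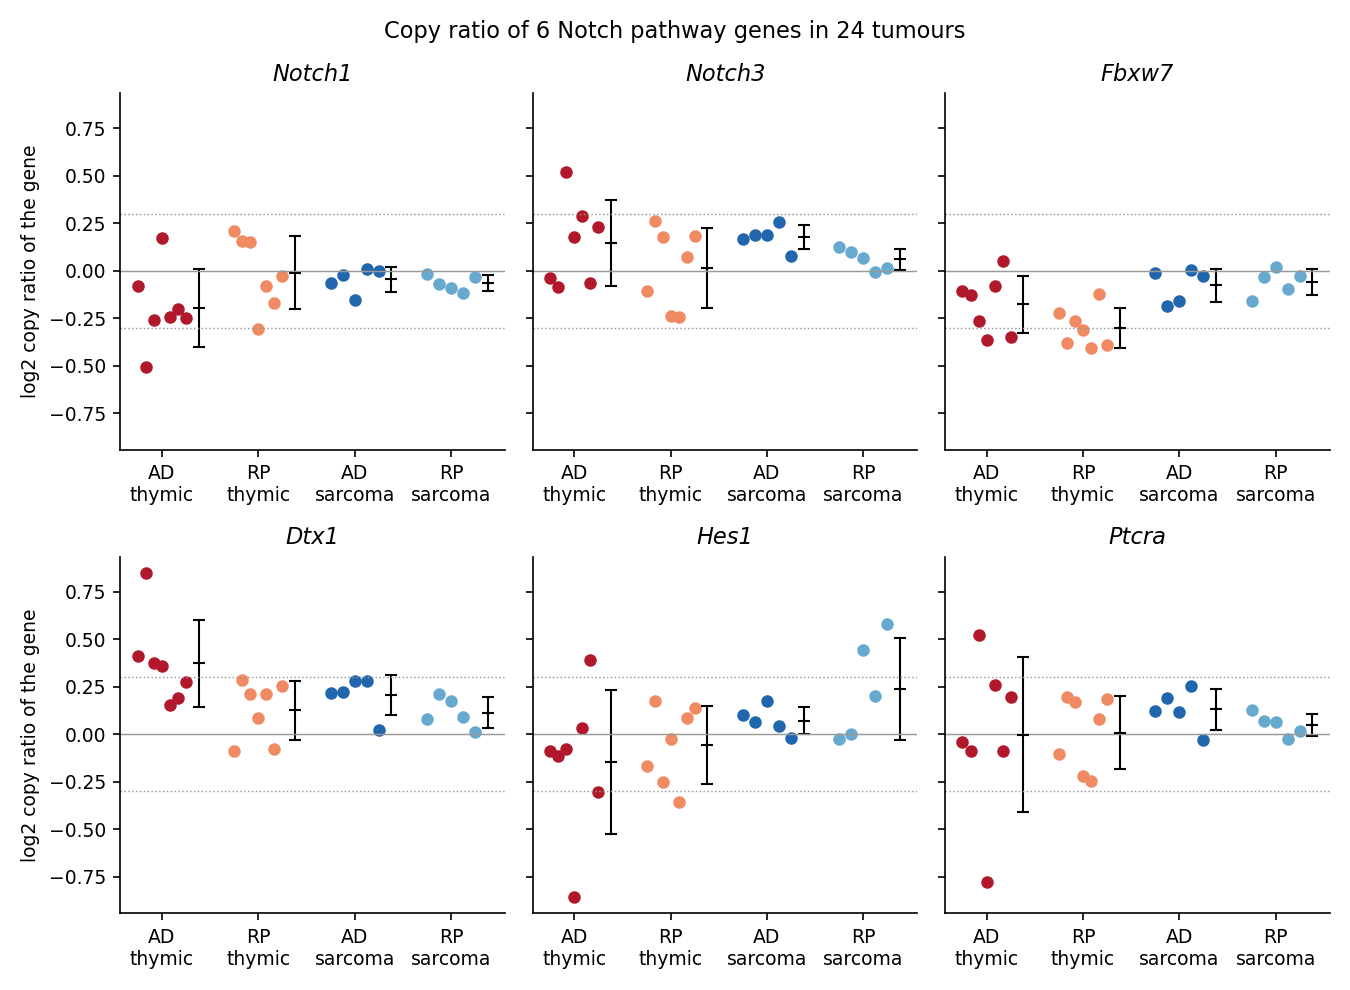
The log2 copy ratio of each gene in each of the 24 tumours, with the mean and SD of each group as a black bar, and dotted lines at 0.3 and -0.3. The 4 gained AD thymic lymphomas at Dtx1, the 4 lost RP thymic lymphomas at Fbxw7 and the 2 gained RP sarcomas at Hes1 lie outside the dotted lines.

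**Figure D3:**
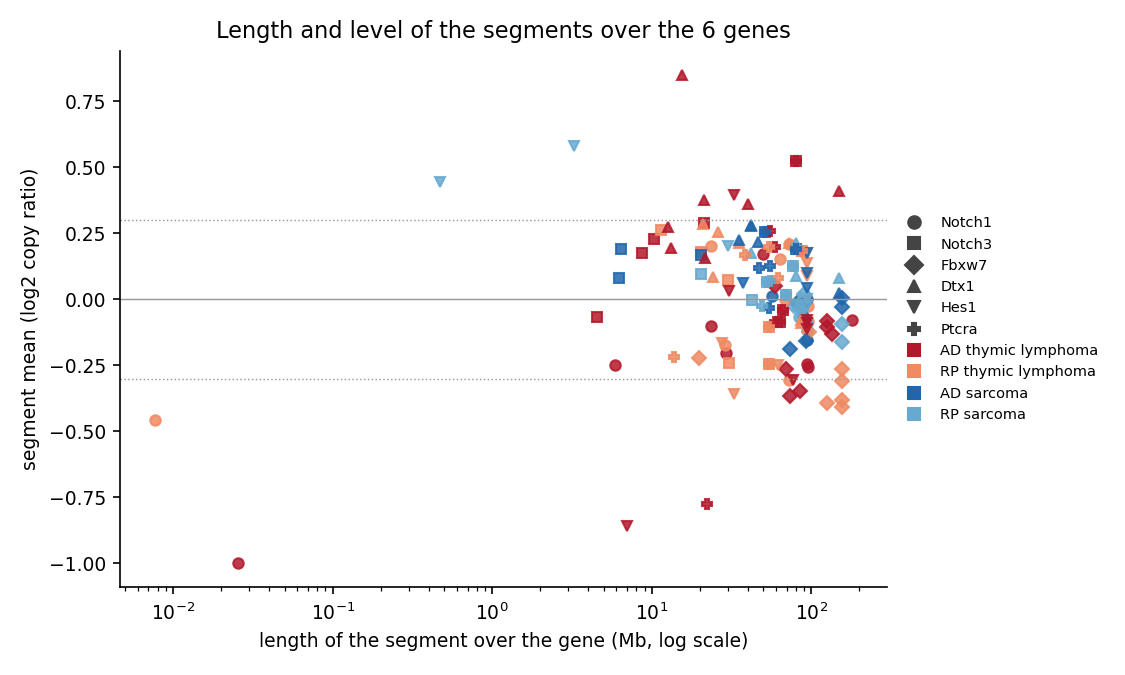
The mean of every segment that overlaps one of the 6 genes (log2 copy ratio) against its length in Mb on a log scale, by gene and group. The short segments of Notch1 (25.3 and 7.73 kb) and the segments over Hes1 in RP sarcomas 3 and 5 (0.469 and 3.28 Mb) stand apart from the rest, which are at least 4.53 Mb long.

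Between AD and RP thymic lymphomas, 0 of the 6 genes passed the two-sided exact permutation test adjusted over all 20665 genes, and 0% of all genes did. At an unadjusted p under 0.05 there was 1 of the 6, Dtx1, against 8.55% of all genes. With limma 0 of the 6 passed and 1 had an unadjusted p under 0.05, against 10% of all genes. Between AD and RP sarcomas 0 of the 6 passed and 0% of all genes did, with 1 of the 6, Notch3, at an unadjusted p under 0.05, against 5.07% of all genes. The smallest p that the exact permutation test allows is 0.000583 in thymic lymphomas and 0.00794 in sarcomas. A gene could therefore pass only together with many others at similarly small p, whatever its own difference. With limma 0 passed in sarcomas too, and 1 had an unadjusted p under 0.05, against 13.9% of all genes.

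Dtx1, an E3 ubiquitin ligase that is itself a target of Notch signalling in T cells, lies on chromosome 5 at 120680203 to 120711867. It stood at 0.41, 0.85, 0.38, 0.36, 0.16, 0.19 and 0.28 in AD thymic lymphomas 1 to 7, and had a lowest, median and highest value of -0.09, 0.21 and 0.28 in RP thymic lymphomas. AD tumours 1 to 4 lay above every RP tumour and the other 3 lay within the RP range. The means were 0.37 ± 0.23 in AD and 0.13 ± 0.16 in RP thymic lymphomas (SD, n = 7 each), a difference of 0.25 ± 0.10 (SE). It had an exact permutation p of 0.0204 and an adjusted p of 0.469, so it did not pass. Gains were called in 4 AD and 0 RP thymic lymphomas (Fisher's exact p = 0.0699, adjusted p = 1).

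The segment behind each Dtx1 gain differed in length. In AD thymic lymphoma 1 it was the whole of chromosome 5, and in AD thymic lymphoma 4 it spanned 40.2 Mb. In AD thymic lymphoma 3 it spanned 21.1 Mb, between short neighbouring segments at -0.75 before it and 0.083 after it. The median of chromosome 5 in that tumour was 0.32, and Dtx1 stood 0.052 above it. Its segment began at 110006615, as did those over Dtx1 in AD thymic lymphomas 5 and 6, RP thymic lymphoma 4 and AD sarcomas 2 to 4. The segment of AD thymic lymphoma 4 shared its start, 104934161, with RP thymic lymphoma 7. It shared its end, 145139966, with RP thymic lymphoma 3, AD sarcoma 2 and RP sarcomas 2 and 4. The cause of these shared ends was not tested. In AD thymic lymphoma 2 the gene lay in 15.4 Mb at 0.85, from 106455449 to 121828401, between neighbours at 0.42 and 0.50. That tumour is also the one with the longer Notch1 loss. Without it the difference at Dtx1 was 0.17. Taken relative to the median of chromosome 5, a setting added after the data had been seen, the difference shrank to 0.072 (exact permutation adjusted p = 0.946, n = 7 each).

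Fbxw7, the substrate receptor of a ubiquitin ligase that marks the intracellular part of Notch for degradation, lies on chromosome 3 at 84814990 to 84979198. Its lowest, median and highest values were -0.37, -0.13 and 0.051 in AD thymic lymphomas, against -0.41, -0.31 and -0.12 in RP thymic lymphomas. It was below 0 in 13 of 14 thymic lymphomas and called lost in 2 AD and 4 RP ones. In sarcomas it stood at -0.014, -0.19, -0.16, 0.0034 and -0.03 in AD and -0.16, -0.033, 0.02, -0.094 and -0.026 in RP tumours, with no call. The AD and RP ranges overlapped in both tumour types. In thymic lymphomas the AD mean was -0.18 ± 0.15 and the RP mean -0.30 ± 0.10 (SD, n = 7 each), and the difference of 0.12 ± 0.070 (SE) did not pass the exact permutation test (adjusted p = 0.545). No segment ended inside the gene in any of the 24 tumours.

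Fbxw7 was the only one of the 6 genes to pass the test between tumour types. Its mean was -0.24 ± 0.14 in thymic lymphomas (SD, n = 14) and -0.068 ± 0.076 in sarcomas (SD, n = 10), a difference of -0.17 ± 0.045 (SE). The two-sided permutation test within genotype gave an adjusted p of 0.00966. Hes1 was the other of 2 genes with an unadjusted p under 0.05, against 40.7% of all genes (with limma also 2, against 40.8%). By the same permutation test 34.1% of all genes were lower in thymic lymphomas and 5.69% higher. Within RP tumours the difference was -0.24 (exact permutation adjusted p = 0.0263, n = 7 and 5), and within AD tumours it was -0.10 (exact permutation adjusted p = 0.459, n = 7 and 5). The test of whether these differ, the interaction term in limma, had an adjusted p of 0.70.

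Fbxw7 moved with chromosome 3 as a whole. In 10 of 14 thymic lymphomas its segment spanned at least 50% of the chromosome, and set against the chromosome median its difference between tumour types was 0.0015. With each tumour centred on its own autosomal median, which was lower in thymic lymphomas (-0.12 ± 0.069) than in sarcomas (-0.029 ± 0.026), the difference at Fbxw7 was -0.083 and did not pass (permutation adjusted p = 0.201).

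Hes1, a transcriptional repressor and direct Notch target, lies on chromosome 16 at 30065357 to 30067796. It was the most variable of the 6 genes over all 24 tumours, from -0.86 in AD thymic lymphoma 4 to 0.58 in RP sarcoma 5. Its lowest, median and highest values were -0.86, -0.09 and 0.39 in AD thymic lymphomas, against -0.36, -0.023 and 0.17 in RP thymic lymphomas. It stood at 0.099, 0.063, 0.17, 0.044 and -0.02 in AD sarcomas, and at -0.026, 0.0004, 0.44, 0.20 and 0.58 in RP sarcomas. The RP sarcomas spread further than the AD ones and both groups overlapped.

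In RP sarcomas 3 and 5, Hes1 lay on the shoulder of a larger gain of chromosome 16. In RP sarcoma 3 the segment over it, 29597585 to 30066871 with 32 markers, also held Opa1, a gene of mitochondrial fusion. The last marker of the segment lay inside Hes1 and the next segment began at 30259237. The end therefore does not place a breakpoint inside the gene. The segment stood at 0.44, lower than its neighbours at 0.91 and 0.82. In RP sarcoma 5 the segment, 27324522 to 30600599 with 205 markers, stood at 0.58. A higher step followed in both, at 1.47 from 30366834 and at 1.17 from 30957337. Its last marker ended at 32186375 in both, and the next marker began at 32233082. The shared end therefore does not place the breakpoint within that gap. From 32233082 on, the chromosome stood at -0.13 in RP sarcoma 3 and -0.36 in RP sarcoma 5. On the other side of Hes1, both tumours held further high steps, the highest in the plotted stretch at 1.42 (87 markers) in RP sarcoma 3 and at 3.01 (160 markers) in RP sarcoma 5. The mean of AD sarcomas was 0.072 ± 0.071 and that of RP sarcomas 0.24 ± 0.27 (SD, n = 5 each), a difference of -0.17 ± 0.12 (SE; exact permutation adjusted p = 0.684). Without RP sarcomas 3 and 5, chosen after seeing the data, it was 0.014.

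In AD thymic lymphoma 4, Hes1 lay in a segment of 7.01 Mb and 920 markers at -0.86. The long segments on either side, past short steps, also stood low, at -0.82 and -0.91. The rest of chromosome 16 was broken into many segments above and below 0, and its length-weighted median was 0.41. Hes1 averaged -0.10 ± 0.30 in thymic lymphomas (SD, n = 14) and 0.16 ± 0.20 in sarcomas (SD, n = 10). The difference of -0.26 ± 0.10 (SE) narrowly missed the threshold in the permutation test within genotype (adjusted p = 0.0599), where 39.8% of all genes passed. It passed with limma (adjusted p = 0.0379) and without AD thymic lymphoma 6 (-0.30), RP thymic lymphoma 2 (-0.28), RP thymic lymphoma 7 (-0.28) or RP sarcoma 1 (-0.28), with permutation adjusted p from 0.0114 to 0.0493. It missed the threshold with the other 20 tumours left out in turn, with a highest adjusted p of 0.157 without RP sarcoma 5 and 0.139 without RP sarcoma 3. With tumours centred on their medians it was -0.17 (permutation adjusted p = 0.255), and relative to the chromosome median -0.26 (permutation adjusted p = 0.420).

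**Figure D4:**
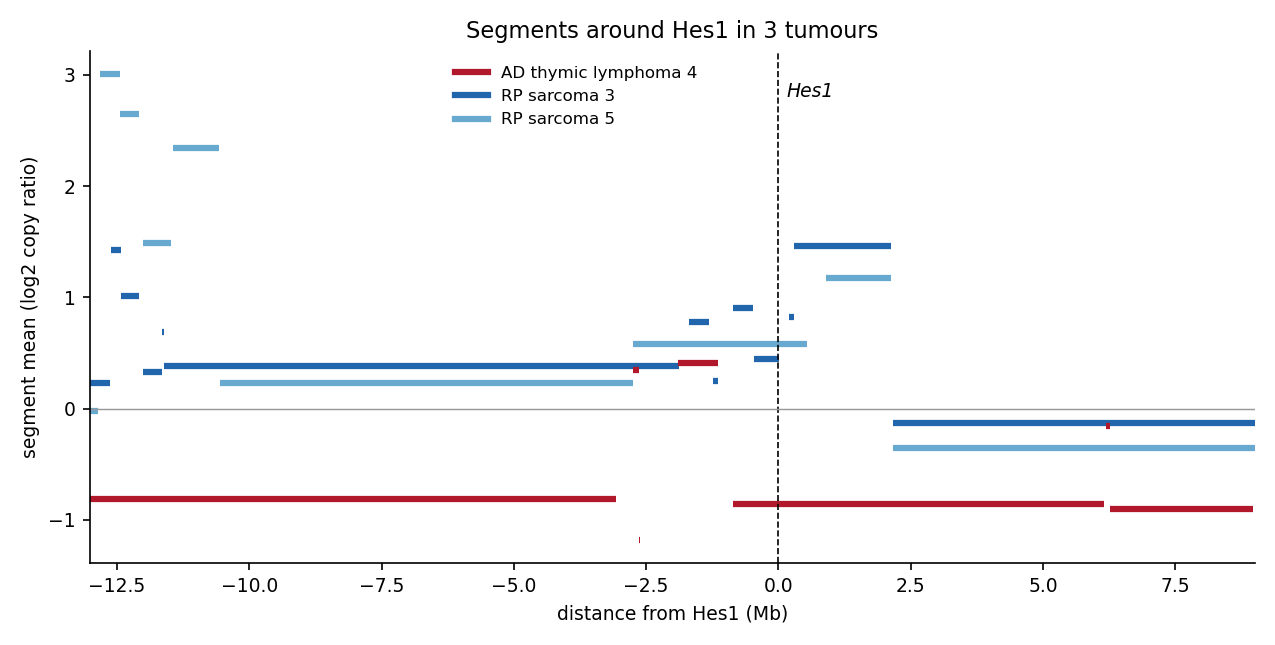
Segment means (log2 copy ratio) against the distance from Hes1 in Mb, which is marked by the dashed line, in AD thymic lymphoma 4 and RP sarcomas 3 and 5. Hes1 sits at 0.44 and 0.58 beside higher steps of 1.47 and 1.17 in the sarcomas, which hold further high steps to the left, and within a long stretch at -0.86 in the thymic lymphoma.

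Notch3, a second Notch receptor of thymocytes, lies on chromosome 17 at 32120820 to 32166896, and Ptcra, which encodes the pre-T-cell receptor alpha chain and is a Notch target, lies 14.6 Mb away at 46755663 to 46763712. One segment covered both genes in 11 of 24 tumours. Notch3 ranged from -0.087 to 0.52 in AD thymic lymphomas, against -0.25 to 0.26 in RP thymic lymphomas. Ptcra ranged from -0.78 to 0.52 in AD and from -0.25 to 0.20 in RP thymic lymphomas. Both were gained at 0.52 in AD thymic lymphoma 3, from a segment of 79.8 Mb. They parted in AD thymic lymphoma 4, where Notch3 stood at 0.18 and Ptcra was lost at -0.78 in a segment of 22.2 Mb.

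In sarcomas Notch3 stood at 0.17, 0.19, 0.19, 0.25 and 0.08 in AD tumours and at 0.13, 0.097, 0.067, -0.0047 and 0.015 in RP tumours. Of the 5 AD values, 4 lay above every RP value and AD sarcoma 5 lay within the RP range. The means were 0.18 ± 0.063 and 0.060 ± 0.055 in AD and RP sarcomas (SD, n = 5 each). The difference of 0.12 ± 0.037 (SE) had an exact permutation p of 0.0238 and an adjusted p of 0.557, where the smallest p these samples allow is 0.00794. Ptcra had 0.13 ± 0.11 in AD and 0.050 ± 0.058 in RP sarcomas (SD, n = 5 each), and the difference of 0.080 ± 0.054 (SE) did not pass (exact permutation adjusted p = 0.583).

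The order of the group means differed between the genes. Dtx1 was highest in AD thymic lymphomas (0.37 ± 0.23), followed by AD sarcomas (0.21 ± 0.11), RP thymic lymphomas (0.13 ± 0.16) and RP sarcomas (0.11 ± 0.080). Notch1 was highest in RP thymic lymphomas (-0.0093 ± 0.19), then in AD sarcomas (-0.046 ± 0.066), RP sarcomas (-0.064 ± 0.041) and AD thymic lymphomas (-0.20 ± 0.21). In both orders neighbouring groups differed by less than the larger of their SDs. The AD minus RP difference at Notch1 in thymic lymphomas, -0.19 ± 0.11 (SE), did not pass the exact permutation test (adjusted p = 0.545, n = 7 each). Of the 6 genes, 0 passed the limma test of whether the AD minus RP difference depends on tumour type, beside 18 of 20665 genes. In that test all 6 also had an unadjusted p above 0.05, while 1671 of the 20665 genes had one under 0.05.

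The other 40 genes of the Notch pathway, a list of ligands, receptors, processing enzymes, nuclear partners, regulators and targets, were read in the same way. Of their values in thymic lymphomas, 11.8% were gained and 11.2% lost, beside 10.4% and 18% over all genes. In sarcomas 1.75% were gained and 1% lost, beside 1.83% and 0.714%. Between AD and RP tumours 0 of the 40 passed the exact permutation test in either tumour type, with 5 (12.5%) in thymic lymphomas and 3 (7.5%) in sarcomas at an unadjusted p under 0.05, beside 8.55% and 5.07% of all genes. With limma 0 passed as well, with 5 (12.5%) and 6 (15%) at an unadjusted p under 0.05, beside 10% and 13.9% of all genes. The median AD minus RP difference of the list was 0.063 in thymic lymphomas and 0.0088 in sarcomas, beside 0.043 and 0.012 over all genes.

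Between tumour types, 3 of the 40 were higher in thymic lymphomas and 9 lower by the permutation test within genotype, which is 7.5% and 22.5%, beside 5.69% and 34.1% of all genes. The higher ones all lie on chromosome 4. They were Spen, a corepressor partner of RBPJ (0.31 ± 0.16 in thymic lymphomas and 0.011 ± 0.055 in sarcomas), Heyl, a Hes-related repressor (0.30 ± 0.17 and 0.0011 ± 0.055), and Ccnc, the cyclin of the kinase Cdk8 (0.25 ± 0.16 and -0.040 ± 0.066).

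Among the lower ones were Dll3, a divergent Notch ligand, and Numbl, a relative of the Notch inhibitor Numb, both on chromosome 7. Each stood at -0.20 ± 0.11 in thymic lymphomas (SD, n = 14) and at 0.14 ± 0.13 in sarcomas (SD, n = 10). Dll3 starts at 28293555 and Numbl at 27258438, and their near-identical values are not separate observations. Psenen, a subunit of the gamma-secretase that cuts Notch, also on chromosome 7, stood at -0.32 ± 0.37 and 0.14 ± 0.13. The receptor gene Notch2, the coactivator gene Maml3, the gamma-secretase gene Aph1a and the target gene Hey1 lie on chromosome 3 with Fbxw7, and their differences ran from -0.17 to -0.15. Kdm5a, a histone demethylase, on chromosome 6 (-0.23) and Dtx4, a relative of Dtx1, on chromosome 19 (-0.23) were the others. With each tumour centred on its median, 4 of the 40 were higher and 4 lower, and 7 of the 12 were called both ways. The calls over all genes then split into 1457 higher and 3061 lower, beside 1175 and 7048 without centring.

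**Figure D5:**
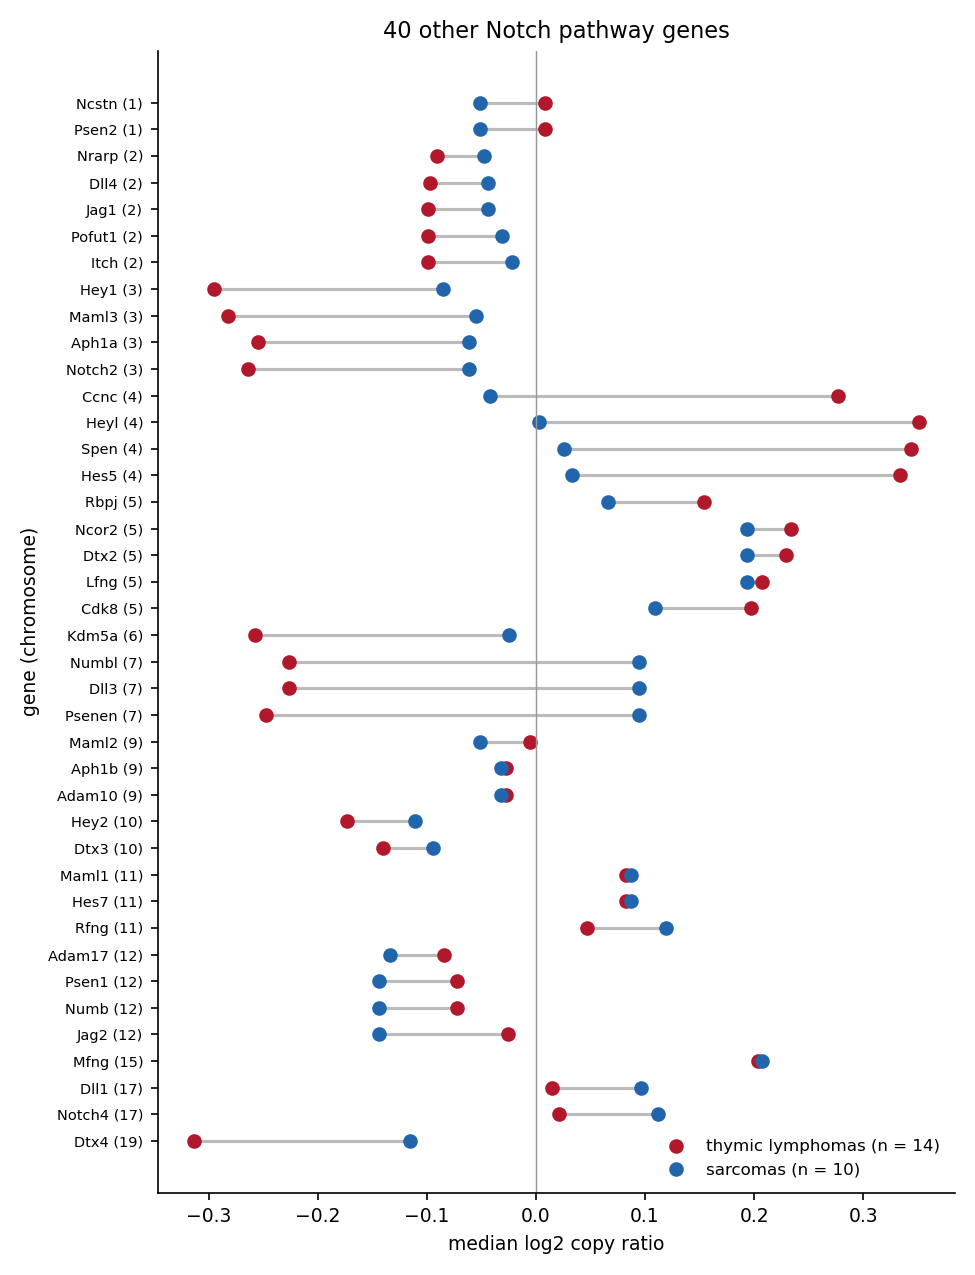
Median log2 copy ratio of each of the 40 other Notch pathway genes in thymic lymphomas (n = 14) and sarcomas (n = 10), ordered by chromosome, with a line joining the medians. Genes of chromosome 4 lie to the right in thymic lymphomas, and those of chromosomes 3 and 7 to the left.

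Few of these genes were changed at a small scale. Jag2, a Notch ligand gene on chromosome 12, stood at 4.80 in AD thymic lymphoma 6, in an amplified segment of 0.59 Mb and 229 markers. Adam17, a protease that can cut Notch at the cell surface, also on chromosome 12, stood at 1.18 in AD thymic lymphoma 5, in a segment of 0.305 Mb and 92 markers. Psenen was at -1.47 in AD thymic lymphoma 7, where a segment of 2.77 kb and 12 markers stood at -1.60. A segment ended inside Psenen in AD sarcomas 3 and 4 too, at 0.41 and 0.27. In both it had the same ends, 23353170 and 30563531, over 7.21 Mb and 2017 markers. The cause of the shared ends was not tested.

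Notch4 was touched by a short loss at one end in AD thymic lymphomas 6 (-0.48, 10 markers) and 7 (-0.45, 6 markers), and Rbpj held an end of a segment of 2 markers at -0.87 in AD thymic lymphoma 6. Except for the gain of Adam17 and the segment ends in the sarcomas, these small changes were in AD thymic lymphomas 6 and 7, the libraries with 124 and 217 short losses, and the part of that in these values was not tested.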

How the data were processed

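Exome libraries of 24 tumours were analysed from 1 table of copy number segments each; the 4 ear samples were not used here. GRCm38 is the build in the submitters' processing notes, which also list GATK 4.1.0.0, BWA 0.7.17 and Trim Galore 0.6.5 with no role. Segments carry coordinates, marker numbers and means, per the file headers. The deposited segment mean is a log2 copy ratio; its base was read from the values and is not stated in a label. The deposited number of markers is a count of targets or windows, not of reads. For the comparison DNA, the drawing of segments and the centring of values, the method is not given in the sources used here. Admixed normal cells move values towards 0.

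A gene took the overlap-weighted mean of its segments, or the nearest segment where none overlapped. Gene positions and sequences came from RefSeq tables of GRCm38.p6, without exons. Genotypes were tested by two-sided exact permutation of group means (3432 splits in thymic lymphomas, 252 in sarcomas), and tumour types with 100000 resamples within genotype. P-values were adjusted over 20665 genes by the Benjamini-Hochberg method. The permutation tests were checked on simulated independent genes, with shifts larger than the differences reported for the 6 genes. Their power at differences of that size was not checked. Alternatives were centring, other gene values, limma 3.58.1 (R 4.3.3), other cutoffs and leaving out tumours. Python 3.11.15, numpy 2.4.6, pandas 2.3.3, scipy 1.17.1 and matplotlib 3.10.9 were used. Each tumour is 1 replicate, numbered in accession order within its group. Genes named were the 6 members, and of the other pathway genes those that passed a test, reached 1 or -1, or held a segment end. The 6 genes, the list of 40 and the tests were chosen with earlier results of these data known.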

Additional observations from a re-analysis of the deposited data

Results flagged for a closer look

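In 24 groups of values (6 genes in 4 groups of tumours), 2 had 1 tumour far from the others, where chance gives about 1 in 20. Dtx1 stood at 0.85 in AD thymic lymphoma 2, while the next highest AD thymic lymphoma was at 0.41, a gap of 0.631 of the group's range. Dtx1 stood at 0.024 in AD sarcoma 5, while the next lowest AD sarcoma was at 0.22, a gap of 0.748 of the range. AD sarcoma 5 had 59 segments, the fewest of the 24 tumours.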

How the results depend on the processing

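Of the tests on the 6 genes, the lower value of Fbxw7 in thymic lymphomas than in sarcomas was the only one that passed. Leaving out 1 tumour at a time gave 1 to 2 genes past the threshold. Limma gave 2 and leaving out AD thymic lymphomas 6 and 7 together gave 2, Hes1 being the second both times. Centring on the tumour median gave 0 of the 6 genes, and 4518 of all genes instead of 8223, and turned the sign at Notch1 (0.041), Notch3 (0.051) and Ptcra (0.0019). Values relative to the chromosome median, added after seeing the data, gave 0 of the 6 and 0 of all genes, which follows from removing whole-chromosome shifts. They turned the sign at Notch3 (0.053), Fbxw7 (0.0015) and Ptcra (0.0038), and of the AD minus RP difference of Fbxw7 in thymic lymphomas (-0.0028). None of the differences that turned had passed a test, except that of Fbxw7.

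With 1 tumour left out at a time, the AD minus RP difference in thymic lymphomas ran between -0.18 and 0.030 at Hes1, positive without AD thymic lymphoma 4, and between -0.098 and 0.12 at Ptcra, positive in 7 of the 14 cases. In sarcomas it ran between -0.044 and 0.0095 at Fbxw7, positive in 3 of the 10 cases. Without RP sarcomas 3 and 5, also added after seeing the data, it was 0.019 at Fbxw7 and 0.014 at Hes1.

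The calls depended on the cutoff. At 0.2 there were 22 in AD and 19 in RP thymic lymphomas, and 6 in AD and 4 in RP sarcomas, against 13, 6, 0 and 2 at 0.3. As shares, the counts at 0.2 are 52.4%, 45.2%, 20% and 13.3%, beside 46.8%, 56.7%, 17.5% and 6.28% over all genes. At 0.5 there were 6 in AD and 0 in RP thymic lymphomas, and 1 in RP sarcomas (14.3%, 0% and 3.33%, beside 7.58%, 4.44% and 0.327% over all genes). Centring gave 17 in AD and 10 in RP thymic lymphomas (40.5% and 23.8%, beside 24.5% and 25% over all genes). In sarcomas centring gave 1 in AD and 2 in RP tumours (3.33% and 6.67%, beside 5.44% and 2.22%). The chromosome median gave 4 in AD and 0 in RP thymic lymphomas (9.52% and 0%, beside 2.98% and 1.37%). In sarcomas the chromosome median gave 0 in AD and 2 in RP tumours (0% and 6.67%, beside 0.585% and 0.842%). Of the values of the 40 other pathway genes in thymic lymphomas, 48.0% were called at 0.2 and 3.57% at 0.5, beside 51.8% and 6.01% over all genes, and in sarcomas 12.8% at 0.2, beside 11.9%. Without segments of under 5 markers, Notch1 had 1 short loss. The cause of these moves was not tested beyond the settings' own construction.

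The labels give each tumour its own animal number, so the groups were compared without pairing. The 4 ear samples share animal numbers with tumours, and these pairs were not used. Read depth is unknown, and no marker lay in the 79.5 kb beyond the short Notch1 segments.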

Other observations

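As a description over the 24 tumours, the gene on another autosome whose copy ratio was most like that of each member was Wdr26 for Notch1 (Pearson r = 0.655), Gm38656 for Notch3 (0.596), Gm15319 for Fbxw7 (0.848), Gm10573 for Dtx1 (0.507), Gbp2b for Hes1 (0.75) and Klrc2 for Ptcra (0.749). These values share libraries and each tumour's centring. On their own chromosomes, 157 genes had the same value as Dtx1 in all 24 tumours (within 1e-09 on the log2 scale), 41 the same as Ptcra, 39 the same as Fbxw7 and 29 the same as Notch3, while no other gene matched Notch1 or Hes1 throughout. Among the members, the closest pair after Notch3 and Ptcra (0.611) was Fbxw7 and Hes1 (0.595), which lie on different chromosomes.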
